A study of Drosophila melanogaster with 12 samples.

Results

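The genes described here encode the proteins of the mitochondrial ribosome in Drosophila melanogaster. They were chosen by name: every probe set with a single gene whose current symbol starts with mRpL (large subunit) or mRpS (small subunit) was taken, with 1 probe set per gene, the one with the highest mean over the 12 arrays. This gave 69 genes of the 73 that carry such a symbol in the RefSeq gene table, of which 44 are large subunit and 25 are small subunit genes by symbol. They are 69 of the 11894 genes that single-gene probe sets of the array represented. The other 4 were not described: mRpL34 and mRpL37 had no probe set listed for them, and mRpS10 and mRpL53 lay on probe sets shared with another gene. No measured value entered the choice of genes, apart from the choice between probe sets for mRpL47 and mRpS11, which have more than 1.

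The cells were Kc167, a cultured line derived from embryos that resembles blood cells, grown in Schneider's medium. Wells received for 30 min either medium conditioned with UPD (Unpaired, a secreted ligand that activates the JAK/STAT pathway) or Mock conditioned medium, and fresh medium then replaced it. RNA was taken 2, 4 or 10 h after the conditioned medium was first added, and each combination of medium and time was made in 2 biological replicates, so that 6 groups and 12 Affymetrix arrays were compared. The wells of the 6 groups share the line, the change of medium and the 30 min exposure, and Mock at the same time is the control for UPD. No untreated cells were among the samples analysed here, and Kc167 is 1 line, so the replicates are cultures of that line. Total RNA of whole wells was measured, so fewer cells of a kind and less RNA per cell cannot be told apart.

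Mitochondrial ribosomes translate the few messages of the mitochondrial genome, which encode core subunits of the respiratory chain and the ATP synthase. Their ribosomal RNAs come from mitochondrial DNA, but every protein of the particle is encoded in the nucleus, made on cytosolic ribosomes and imported, so assembly draws on many separate nuclear genes. Some of these proteins descend from bacterial ribosomal proteins and sit at conserved places such as the peptidyl transferase centre, the decoding site and the exit tunnel, while others are found in mitochondria alone and coat the outside of the particle. By a grouping on the family names, 43 of the 69 genes were counted as bacterial-type and 26 as specific to mitochondria. Of the S18 genes, that grouping took mRpS18A and mRpS18C as bacterial-type and mRpS18B as specific to mitochondria, and other groupings are possible.

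Values are the deposited log2 signals, and a difference of 1 is a doubling. Of 13 measured blood-cell markers, 7 lay above the upper quartile of both Mock arrays at 2 h (Col4a1, Hml, vkg, srp, mys, Pxn and ush), while NimC1, He, ItgaPS4 and the crystal-cell genes lz, PPO1 and PPO2 did not. Probes at the 3′ end of Act5C read higher than those at its 5′ end, a control for RNA length, by 0.71 to 0.89 on the 2 h arrays. This excess came to 0.96 and 0.95 (UPD) and 1.17 and 0.72 (Mock) for the 4 h arrays, and to 1.37 and 1.25 (UPD) and 1.15 and 1.14 (Mock) for the 10 h arrays. Other such controls gave other orders: for eIF4a it was 0.58 to 0.74 at 2 h and highest on Mock 10 h replicate 2 (1.21, against 1.04 and 0.93 for UPD), and 1 GAPDH set was lowest on UPD 10 h replicate 1 (1.90) and highest on Mock 10 h replicate 2 (2.53). The hybridisation spikes of Mock 4 h replicate 2 averaged 8.28, against 9.73 to 10.76 on the other 11 arrays. The part of these features in the results was not tested, and the results that rest on the 10 h arrays or on that Mock array are given without them where they moved.

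All 69 genes were well expressed. Each lay above the median of all probe sets on all 12 arrays, and each lay above the upper quartile on every array but Mock 2 h replicate 1, where 68 did. Signals of different probe sets are not amounts that can be set against each other, so the means over 12 arrays only show the span of the family. They were highest for mRpS5 (10.55), a counterpart of a protein at the bacterial messenger entry site, mRpL30 (10.53) and mRpL28 (10.50), which are bacterial-type large subunit proteins. They were lowest for mRpL45 (7.44), which in mammals lies near the tunnel exit and the inner membrane, and for mRpS26 and mRpS6 (7.83 each).

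The family's median level overlapped between media at each time. At 2 h the median over the 69 genes was 9.31 and 9.42 with UPD, and 9.45 and 9.27 with Mock. At 4 h the values were 9.30 and 9.24 with UPD, and 9.30 and 9.17 with Mock. At 10 h they were 9.11 and 9.73 with UPD, and 9.85 and 8.95 with Mock. The replicates lay much further apart at 10 h than before. As group means with n = 2, the family median at 2 h was 9.37 ± 0.07 (SD) with UPD, 9.36 ± 0.13 with Mock. The corresponding means were 9.27 ± 0.04 against 9.23 ± 0.09 at 4 h, and 9.42 ± 0.44 against 9.40 ± 0.64 at 10 h. Over the 9384 probe sets above the median level, the corresponding array medians ran from 7.08 to 7.56 at 2 and 4 h, and were 6.10 and 6.63 for UPD and 7.12 and 6.88 for Mock at 10 h. The median of bright probe sets was therefore lower on both UPD arrays than on both Mock arrays at 10 h, while the family median was not. Of these bright probe sets, 36.8% were themselves lower and 6.29% higher on both UPD arrays.

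**Figure D1:**
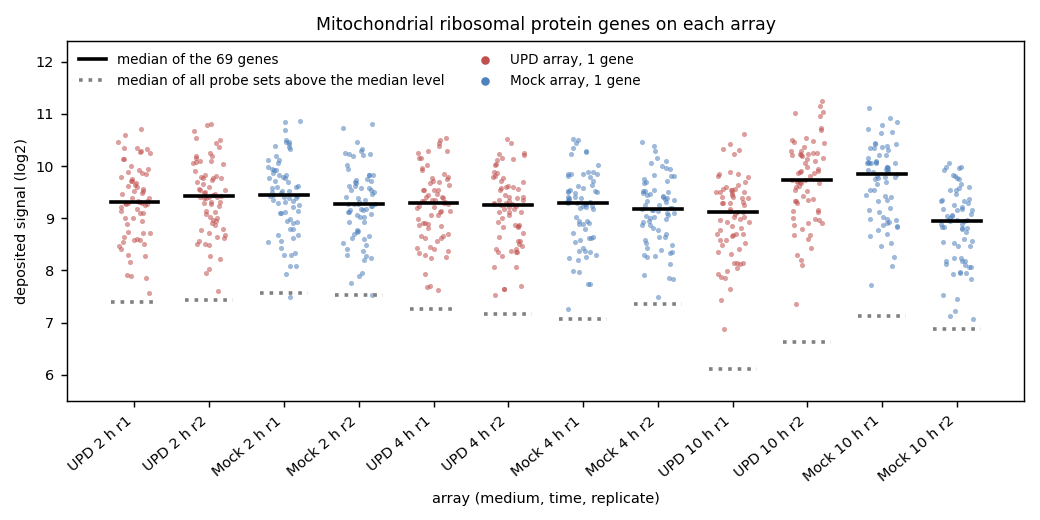
Deposited log2 signal (vertical axis) of the 69 mitochondrial ribosomal protein genes on each of the 12 arrays (horizontal axis, grouped by time and medium), with the family median and the median of the 9384 probe sets above the median level. The family median stays between 9.17 and 9.45 on the 8 arrays of 2 and 4 h and spreads from 8.95 to 9.85 at 10 h.

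The spread at 10 h was a shift of the whole family between replicates. Replicate 2 lay above replicate 1 of UPD at 10 h for 69 of 69 genes, by a median of 0.68 (0.39 to 1.00). Replicate 2 lay below replicate 1 of Mock at 10 h for 69 of 69 genes, with a median difference of −0.87 (−1.41 to −0.31). Probe sets above the median level shifted the same way in the same pairs, by medians of 0.55 and −0.47. At 2 and 4 h the median difference between replicates was between −0.17 and 0.10. Once each array was centred on the family's own median, the median SD between replicates was 0.03 to 0.06 in the groups of 2 and 4 h. For the 10 h groups it was 0.08 (UPD) and 0.10 (Mock), against 0.48 and 0.61 before centring. A gene's range over the 12 arrays had a median of 0.48 after centring (0.12 to 0.90), and of 1.02 before (0.65 to 1.52).

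At 2 h, no mitochondrial ribosomal protein gene passed the test for a difference between UPD and Mock. In limma's moderated test, adjusted by Benjamini-Hochberg over 18769 probe sets, 0 of the 69 passed 0.05, against 0.00533% of all probe sets, and 0 had an unadjusted p under 0.05. The differences (UPD minus Mock) ran from −0.13 to 0.17 with a median of 0.02, and 47 were positive and 22 negative. All 69 lay within 1.2-fold. The median over all probe sets was −0.10. The split moved with the scaling, to 66 positive and 3 negative with quantile normalization (median 0.10) and to 61 and 8 with one common median (0.07).

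The highest difference belonged to mRpL47, whose counterparts line the tunnel exit, with 9.93 and 10.07 on the UPD arrays and 9.93 and 9.73 on the Mock arrays. It came to 0.17 ± 0.40 (SE; limma adjusted p = 1), and the groups overlapped at nearly equal values. Its other probe set gave 0.01, so its probe sets disagree at 2 h. The next were mRpS24 (0.15), the counterpart of bacterial S3 at the messenger entry site, and the mitochondria-specific mRpL52 (0.14), and in both the arrays of the media overlapped. The lowest were mRpS5 (−0.13), mRpS30 (−0.11), whose mammalian counterpart sits in the large subunit, and mRpS9 (−0.10), whose bacterial counterpart reaches from the small subunit head to the transfer RNA in the P site. In mRpS5 the UPD arrays held 10.60 and 10.79 and the Mock arrays 10.85 and 10.80. Both UPD arrays lay below both Mock arrays in these 3 genes, which are also the 3 with the longest genes of the family. Both lay above in mRpL43 and mRpL45 alone, and the arrays overlapped in the other 64. Among probe sets above the median level, both arrays were higher in 6.79% and lower in 44.3%.

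At 4 h, 0 of the 69 genes passed 0.05 in limma's moderated test, against 0.0% of all probe sets, and 0 had an unadjusted p under 0.05. The differences ran from −0.28 to 0.24 with a median of 0.02, which is also the median over the probe sets above the median level. Of these differences 41 were positive and 28 negative, and 68 lay within 1.2-fold. The split turned to 22 positive and 47 negative with quantile normalization (median −0.045) and was 61 to 8 with one common median (0.07). Both UPD arrays lay above both Mock arrays in 16 genes and below them in 3 (mRpL38, mRpS26 and mRpS6), and they overlapped in 50. The background is 17.9% higher and 15.9% lower among probe sets above the median level. Without Mock 4 h replicate 2, whose spikes were low, the family median was −0.01.

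The highest differences at 4 h were those of mRpL45 and mRpS9 (0.24 each) and mRpL3 (0.17), a bacterial-type protein near the peptidyl transferase centre. For mRpS9 the UPD arrays held 10.16 and 10.12 and the Mock arrays 9.85 and 9.95, so the groups did not overlap. The difference had an SE of 0.29 and the smallest p of the family at that time, 0.443 before and 1 after adjustment in limma's test. For mRpL3 the values were 9.72 and 9.70 with UPD and 9.53 and 9.55 with Mock, again without overlap. The lowest was the mitochondria-specific small subunit gene mRpS26, with 7.62 and 7.65 on the UPD arrays and 7.99 and 7.84 on the Mock arrays, a difference of −0.28 ± 0.48. It was followed by mRpL42, found in mitochondria alone, and mRpS6, counterpart of a bacterial platform protein, with −0.11 each. In mRpL42 the UPD arrays (8.26 and 8.07) overlapped the Mock arrays (8.25 and 8.29).

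The 12-array test carried the wide spread of the 10 h arrays into these early comparisons: the median SE over the family was 0.40, and 95% intervals reached 0.92 to either side. A fit on the 8 arrays of 2 and 4 h, added after the data had been seen, brought the median SE to 0.15. It again called 0 of the 69 genes at 2 h and at 4 h, with smallest adjusted p of 0.979 and 0.952. Over all 18769 probe sets it called 1 at 2 h and 0 at 4 h, so its calls do not set the family apart. Restricted to probe sets above the median level, that fit called 15 of 9384 at 4 h, none of them a mitochondrial ribosomal protein gene. The lowest adjusted p in the family was then 0.545, for mRpS26.

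At 10 h, the ribosomal protein genes again did not pass the test, at a time when many other transcripts were lower with UPD. Limma called 199 of 18769 probe sets, 1.06%, of which 20 were higher and 179 lower, and 0 of the 69 genes, of which 0 had an unadjusted p under 0.05 and the smallest adjusted p was 0.444. The differences ran from −0.59 to 0.69 with a median of 0.10, 48 positive and 21 negative, beside medians of −0.18 (all probe sets) and −0.41 (those above the median level). Of the 69 genes, 36 lay within 1.2-fold and 65 within 1.5-fold. In a fit restricted to probe sets above the median level, 1804 of 9384 were called, 19.2%, nearly all lower (1718), and again 0 of the 69 genes, with a smallest adjusted p of 0.188. The median 95% interval reached 0.92 to either side, so a change of the size seen in bright probe sets in general was not detectable in a single gene of the family at this spread. That interval rests on a variance shared by all groups. The median SE was 0.40, below the family's median SD between replicates at 10 h, 0.48 (UPD) and 0.61 (Mock). In each group of 2 and 4 h that SD was lower than the SE. The SEs and intervals given for comparisons with 10 h arrays are therefore likely too narrow.

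The value of the family's difference at 10 h depended on which arrays were set against each other. UPD replicate 1 minus Mock replicate 1 had a median of −0.66, with 0 of 69 genes higher on the UPD array. UPD replicate 2 minus Mock replicate 2 had a median of 0.88, with 69 of 69 higher. The other pairings gave 0.19 (UPD replicate 1 minus Mock replicate 2, 51 higher) and 0.07 (UPD replicate 2 minus Mock replicate 1, 42 higher). Probe sets above the median level also moved with the pairing, with medians of −0.88, −0.02, −0.49 and −0.37 in the same order. In none of the 69 genes did the UPD arrays lie clear of the Mock arrays, whereas 36.8% of probe sets above the median level were lower and 6.29% higher on both UPD arrays. With 1 of these arrays left out, the family median was 0.48 (UPD replicate 1 out), −0.26 (UPD replicate 2 out), 0.53 (Mock replicate 1 out) or −0.30 (Mock replicate 2 out). The 4 pairings are of the same 4 arrays and are a description with no test.

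Scaling moved the split as well. With quantile normalization the family median at 10 h was 0.38, with 62 genes positive and 7 negative. There 30 of the 69 genes, which share arrays, had an unadjusted p under 0.05 in limma's test, against 0 in the deposited values. After adjustment 1 gene passed (mRpL55, 0.88, limma adjusted p = 0.0354), and the calls over all probe sets were 172 higher and 406 lower, or 3.08%. That setting moved the median of all probe sets from −0.18 to 0.00. With a trend in gene length removed, the family median was −0.07 and the split 25 positive to 44 negative.

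**Figure D2:**
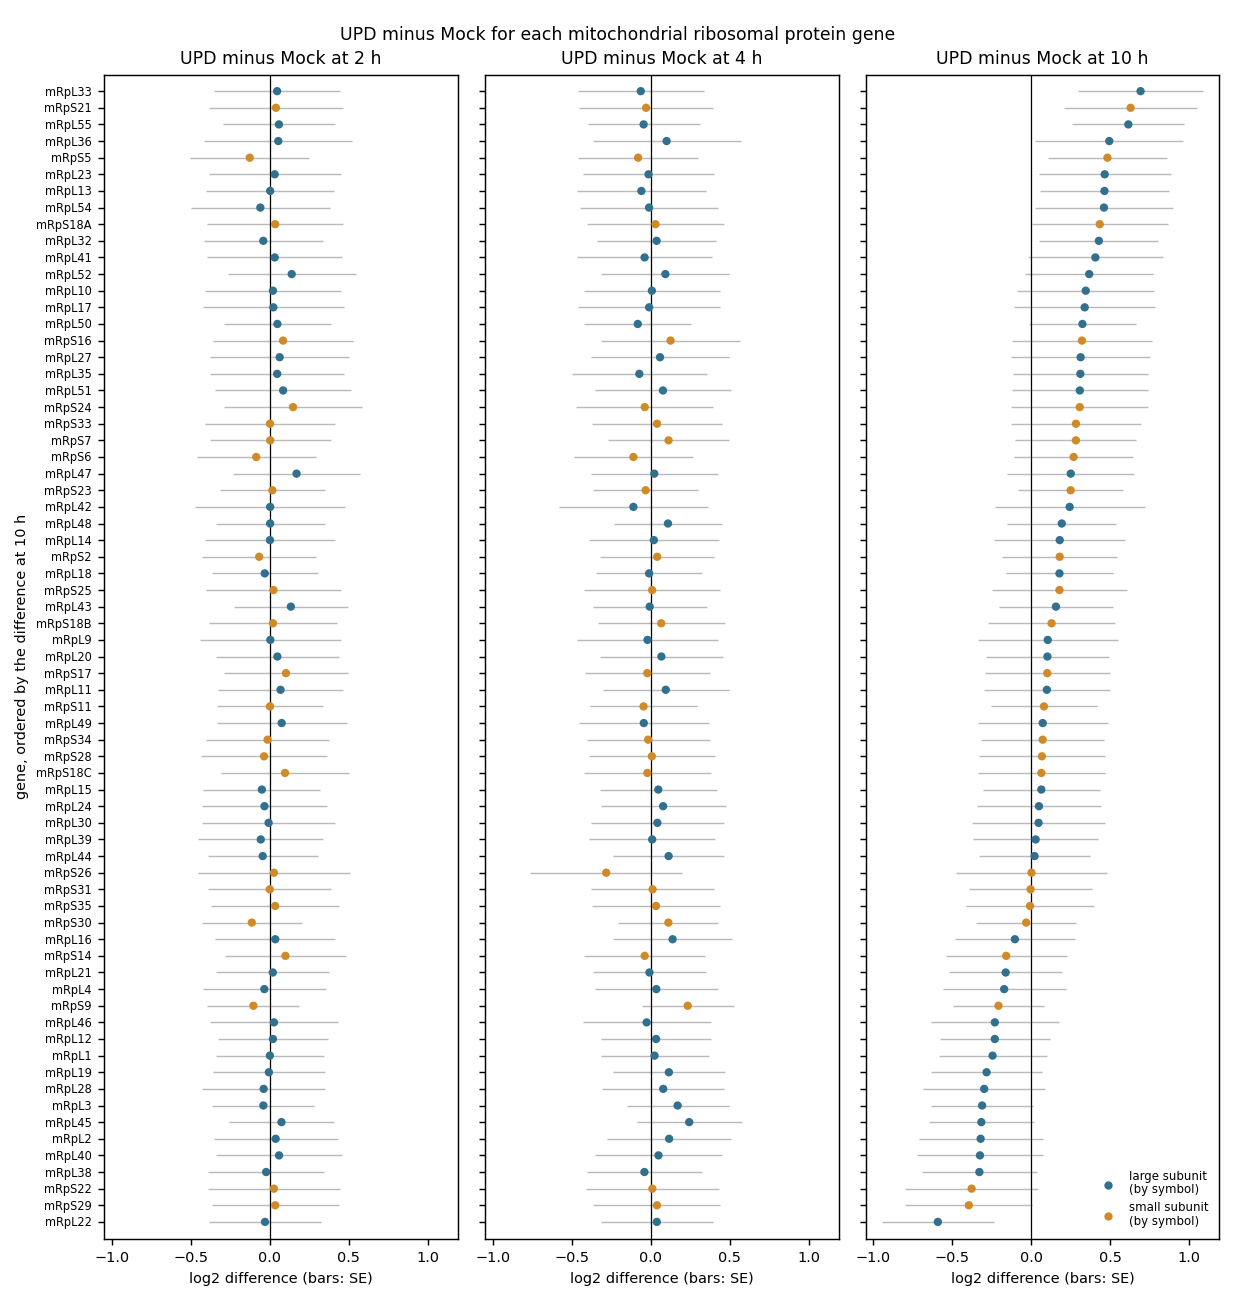
Log2 difference (UPD minus Mock, horizontal axis) of each of the 69 genes (vertical axis, ordered by the difference at 10 h) at 2, 4 and 10 h, with limma's SE as bars and colours for the subunit named by the symbol. The points stay between −0.28 and 0.24 at 2 and 4 h and open to −0.59 to 0.69 at 10 h, with large and small subunit genes mixed along the order.

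Neither subunit nor descent separated the differences at 10 h. The median was 0.10 for the 44 large subunit genes, of which 30 were positive, and 0.10 for the 25 small subunit genes, of which 18 were positive. It was 0.10 for the 43 bacterial-type genes (31 positive) and 0.07 for the 26 mitochondria-specific ones (17 positive).

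The highest differences were in genes for very small bacterial-type proteins. At 10 h mRpL33, counterpart of the bacterial large subunit protein L33, held 9.81 and 10.50 with UPD, and 9.88 and 9.04 with Mock. Its difference was 0.69 ± 0.40 (SE), with a 95% interval of −0.23 to 1.62 and a limma adjusted p of 0.444. The UPD arrays reached higher and the Mock arrays lower, and 1 Mock array lay between the UPD arrays. The small subunit gene mRpS21, counterpart of bacterial S21, held 10.61 and 11.25 with UPD and 10.83 and 9.77 with Mock. Its difference was 0.63 ± 0.42 (adjusted p = 0.525 in limma's test), with the same overlap. For mRpL55, counterpart of bacterial L31, the values were 8.93 and 9.73 with UPD and 8.96 and 8.47 with Mock, a difference of 0.61 ± 0.36 (limma adjusted p = 0.448). For mRpL36, counterpart of bacterial L36, they were 9.45 and 10.26 with UPD and 9.99 and 8.73 with Mock, a difference of 0.49 ± 0.47. At 2 and 4 h, the differences of these 4 genes lay between −0.06 and 0.10.

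The lowest difference was that of mRpL22, whose bacterial counterpart forms part of the tunnel wall. At 10 h it held 8.58 and 8.998 with UPD, and 9.78 and 8.98 with Mock. Its difference was −0.59 ± 0.35 (SE), with a 95% interval of −1.42 to 0.23 and a limma adjusted p of 0.467, and the groups overlapped by 1 pair of nearly equal arrays. The small subunit gene mRpS29, which encodes the GTP-binding protein also known as DAP3, held 7.94 and 8.68 with UPD and 9.16 and 8.25 with Mock, a difference of −0.40 ± 0.40. The mitochondria-specific small subunit gene mRpS22 held 8.70 and 9.30 with UPD and 9.93 and 8.82 with Mock, a difference of −0.38 ± 0.42. Next came mRpL38, found in mitochondria alone, with −0.33 ± 0.37. At 2 and 4 h their differences lay between −0.04 and 0.04. Without Mock 10 h replicate 1 the differences of mRpS29 and mRpS22 were 0.06 and 0.18, so their direction rests on that array.

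**Figure D3:**
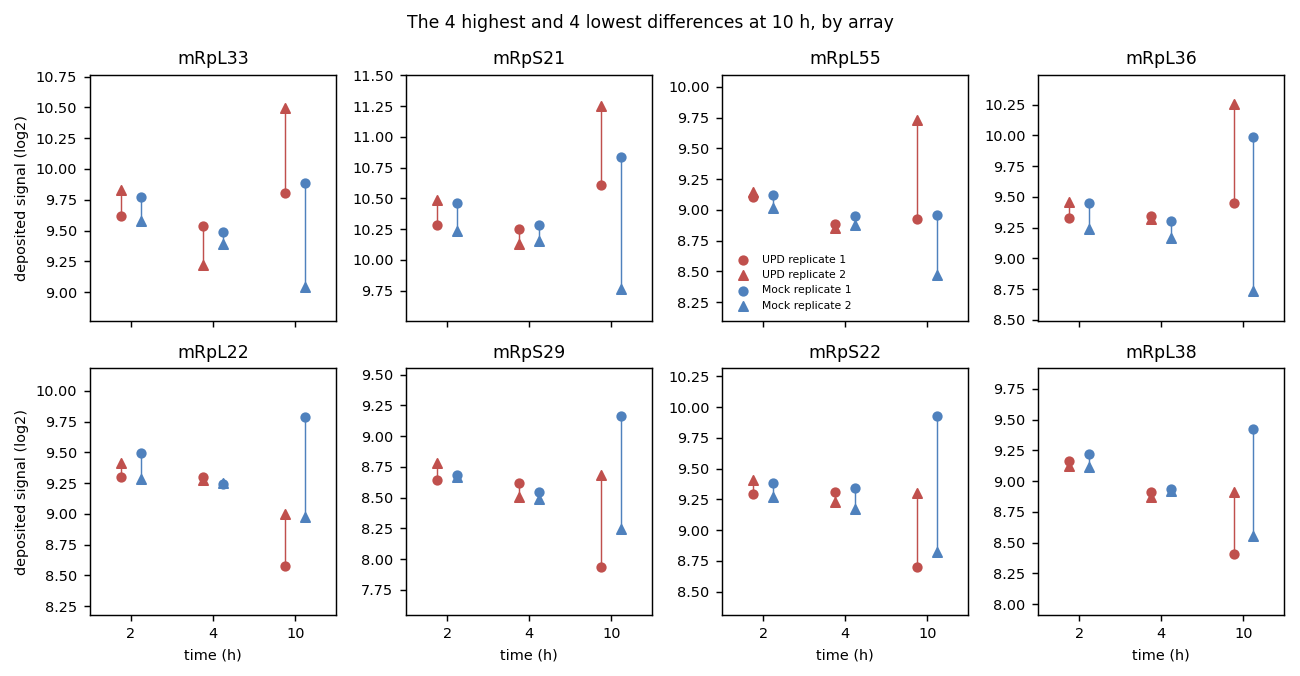
Deposited log2 signal (vertical axis, the same span in each panel) of the 4 genes with the highest and the 4 with the lowest difference at 10 h, by time (horizontal axis), medium (colour) and replicate (symbol), with a line joining the 2 replicates. Replicates lie close together at 2 and 4 h and far apart at 10 h, and at 10 h the media overlap in all 8 panels.

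Between 10 and 2 h, the family had medians near 0 in both media, while the medians of bright probe sets lay well below 0. In Mock, the difference between 10 and 2 h had a median of −0.04 (−0.63 to 0.25), 26 positive and 43 negative, beside −0.41 over probe sets above the median level. The family median was −0.49 with Mock 10 h replicate 1 left out and 0.40 with replicate 2 left out. Quantile normalization gave 0.30, with 63 positive and 6 negative, and 11 genes at an unadjusted p under 0.05 in limma's test. Limma called 0 of the 69 genes, against 0.0% of all probe sets, and the smallest adjusted p was 0.524, for the mitochondria-specific mRpL50 (−0.53). The lowest differences were those of mRpL13 (−0.63) and mRpS5 (−0.58), and the highest those of mRpL2 (0.25), a protein near the peptidyl transferase centre, mRpS14 (0.23) of the small subunit head and mRpL47 (0.21). Without Mock 10 h replicate 1 these 3 were −0.25, −0.16 and −0.16, so their direction rests on that array. For mRpL13, a bacterial-type large subunit protein, the Mock arrays held 9.29 and 9.08 at 2 h and 9.03 and 8.07 at 10 h, so both were lower, as in 7 of the 69 genes and in 49.3% of probe sets above the median level. In none were both higher (3.35%).

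In UPD-treated cells, the difference between 10 and 2 h had a median of 0.02 (−0.67 to 0.54), 38 positive and 31 negative, beside −0.80 over probe sets above the median level. Limma called 1776 probe sets, 9.46%, of which 189 were higher and 1587 lower, and 0 of the 69 genes, 0 of which had an unadjusted p under 0.05. In the fit restricted to probe sets above the median level it called 3830 of 9384, 40.8%, and again 0 of the 69, with a smallest adjusted p of 0.101. The lowest difference was that of mRpL28, a bacterial-type large subunit protein, with 10.71 and 10.80 at 2 h and 9.70 and 10.47 at 10 h. It came to −0.67 ± 0.39 (limma adjusted p = 0.327), and both 10 h arrays lay below both 2 h arrays. It was followed by mRpL22 (−0.57) and mRpS9 (−0.52, with the smallest adjusted p, 0.306). The highest were mRpS21 (0.54), mRpL10 (0.49), which anchors the ribosomal stalk, and the mitochondria-specific mRpL54 (0.46). Both 10 h arrays were higher than both 2 h arrays in mRpL23, a protein at the tunnel exit, and mRpS21, and lower in 10 genes, where the background is 4.9% and 66.9% of probe sets above the median level.

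This comparison turned on its 2 late arrays. The family median was 0.35 without UPD 10 h replicate 1 and −0.33 without UPD 10 h replicate 2. With quantile normalization it was 0.58, with 67 genes positive, and 1 gene, mRpS33, passed with a limma adjusted p of 0.0463, against 2.51% of all probe sets. In that setting 49 of the 69 genes had an unadjusted p under 0.05 in limma's test. When each array was centred on the family median, a setting added after the data had been seen, mRpL28 passed (−0.72, limma adjusted p = 0.0306), against 18.4% of all probe sets.

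The test of the difference itself, UPD response at 10 h minus UPD response at 2 h, called 0 of the 69 genes, against 0.0% of all probe sets, and 0 had an unadjusted p under 0.05. The median was 0.09 (−0.56 to 0.65), 45 positive and 24 negative, and the smallest adjusted p was 0.791 in limma's test. The highest values were those of mRpL33 (0.65), mRpS5 (0.61) and mRpS21 (0.59), and the lowest those of mRpL22 (−0.56), mRpS29 (−0.43) and mRpS22 (−0.40). The median SE was 0.56. Leaving out 1 array of 10 h gave family medians of 0.45 (UPD replicate 1), −0.26 (UPD replicate 2), 0.52 (Mock replicate 1) and −0.30 (Mock replicate 2). Quantile normalization gave 0.30, with 56 positive and 13 negative, 7 genes at an unadjusted p under 0.05 and a smallest adjusted p of 0.266.

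The mitochondrial ribosomal protein genes are compact, a feature the choice of genes did not use. Their genomic length, from the first to the last base of the gene in RefSeq Release 6, had a median of 909 bp (468 to 13391), against 2850 bp for the 7821 probe sets above the median level whose gene length is known. When those probe sets were divided by length into 3 classes at 1899 and 4773 bp, 66 of the 69 genes fell in the shortest class, mRpS30 (2242 bp) in the middle and mRpS5 (6299 bp) and mRpS9 (13391 bp) in the longest. In these classes the median difference between media at 10 h was −0.11, −0.59 and −0.80 from short to long, and the difference between 10 and 2 h in UPD-treated cells was −0.33, −0.94 and −1.37. The 66 short ribosomal protein genes had medians of 0.10 and 0.03 in the same comparisons, above their length class in both. That class reaches 1899 bp, so it is not matched to the family in length. With a trend in gene length removed, the family medians were −0.07 and −0.02. All probe sets of known length then had −0.04 and 0.01, and the bright ones −0.19 and −0.22.

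Length also ordered the genes within the family at 10 h. The 4 shortest, mRpL33 (468 bp), mRpL55 (512 bp), mRpS21 (534 bp) and mRpL36 (549 bp), were the 4 with the highest difference between media. The 23 shortest genes (up to 809 bp) had a median of 0.28 with 22 positive, the next 23 had 0.18 with 19 positive, and the 23 longest (from 1088 bp) had −0.16 with 7 positive. Across the 69 genes, which share arrays and are not independent, Spearman's correlation of length with the difference at 10 h was −0.59, and Pearson's with log10 length was −0.41. It was −0.64 by Spearman's measure over the 66 genes of the shortest class. Over bright probe sets with known length it was −0.36. The order held in each pairing of a UPD with a Mock array at 10 h, with Spearman values from −0.63 to −0.40. The pairings reuse the same arrays, so they are not repeated support. Differences between replicates of the same medium at 10 h also varied over the 69 genes, with SDs of 0.14 (UPD) and 0.20 (Mock). Whether those differences follow length was not tested. The difference between 10 and 2 h in UPD-treated cells, which uses the same UPD arrays at 10 h, gave −0.67, and that in Mock −0.27. The difference between media gave −0.40 at 2 h and, with the opposite sign, 0.29 at 4 h. The 3′ excess of Act5C was higher at 10 h than at 2 h and highest on the UPD arrays, that of eIF4a was also higher at 10 h on 3 of 4 arrays but highest on a Mock array, and an older actin control set was 0.46 to 0.75 on all arrays. Their part in the order by length was not tested.

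Some genes stood off this order. Counted from the shortest gene and from the highest difference, mRpL13 ranked 55 and 7, and mRpL40 ranked 28 and 65. The gene mRpS5, with 6299 bp the second longest of the family, had the fifth highest difference at 10 h, 0.48 ± 0.38. Its UPD arrays held 10.42 and 11.03 and its Mock arrays 10.65 and 9.84. Its adjusted p was 0.597 in limma's test, and 0.0518 once a trend in gene length was removed from each array, the smallest of the family in that setting. That removal raises long genes against short ones at 10 h, so this value is not separate evidence on mRpS5.

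**Figure D4:**
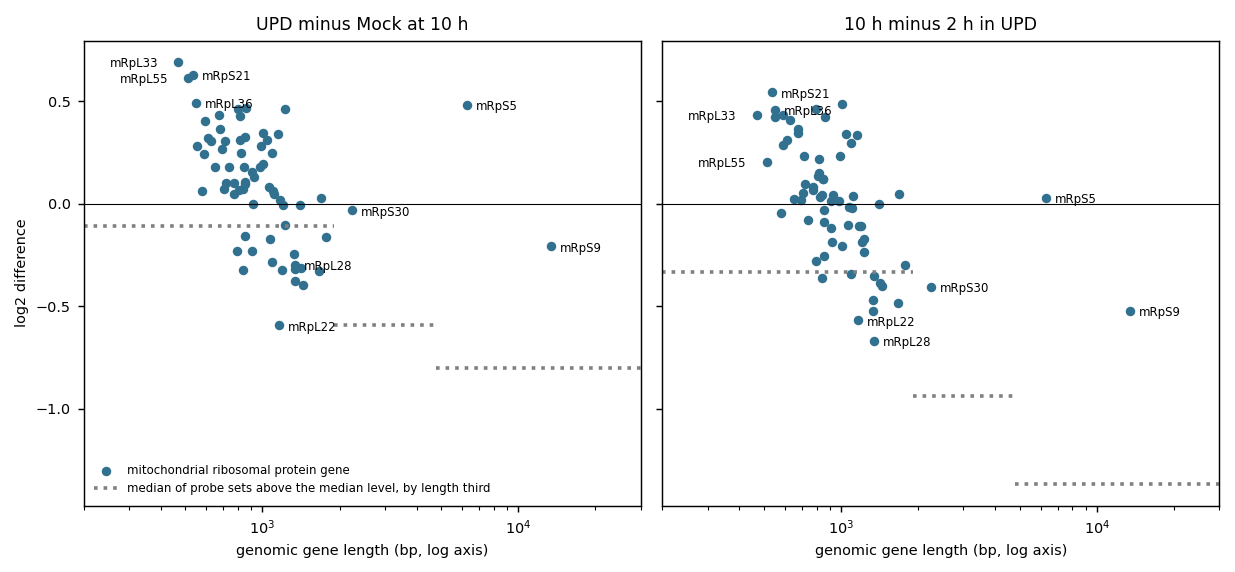
Log2 difference (vertical axis) against genomic gene length in bp (horizontal log axis) for the 69 genes at 10 h, UPD minus Mock (left), and for 10 h minus 2 h in UPD-treated cells (right), with dotted lines at the medians of 3 length classes of probe sets above the median level. The 4 shortest genes are the 4 highest on the left, and most genes lie above the line of their class on both sides.

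Genes for proteins of the same ribosome that carry other symbols were measured too, and neither passed the test at 10 h. The gene tko, which encodes S12 of the decoding site, held 8.46 and 9.18 at 10 h with UPD, and 8.98 and 7.89 with Mock, a difference of 0.39 ± 0.43 (limma adjusted p = 0.731). The gene bonsai, which encodes S15, held 9.61 and 10.14 with UPD and 9.11 and 9.45 with Mock, a difference of 0.59 ± 0.32 (limma adjusted p = 0.419). In bonsai both UPD arrays lay above both Mock arrays, and Mock replicate 2 lay above replicate 1, the reverse of the 69 genes. For 10 h minus 2 h in Mock, bonsai gave −0.85 ± 0.32 (limma adjusted p = 0.312), below the lowest of the 69, and at 4 h it gave 0.26 between media, above the highest.

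In the deposited values, the lists of other genes of mitochondrial gene expression had lower medians than the ribosomal proteins at 10 h. Their counts are read beside the 1.06% of all probe sets called, and beside 176 lower and 8 higher of the 9384 above the median level. Of 13 measured translation factors and helpers, 0 passed in the UPD minus Mock comparison at 10 h, with a median of −0.30. The highest was mRRF1, a ribosome recycling factor (0.57), and the lowest mEFTu2, an elongation factor that delivers transfer RNA (−1.12, limma adjusted p = 0.228). Of 15 mitochondrial aminoacyl-tRNA synthetase genes, including Slimp, a synthetase-like protein, 1 passed, lower, and the median was −0.53. It was ValRS-m, which charges valine transfer RNA, with 3.76 and 3.63 on the UPD arrays and 5.74 and 5.19 on the Mock arrays, and it fell by 1.77 ± 0.30 (SE; limma adjusted p = 0.0498). The highest of that list was AsnRS-m (0.78). Of 7 genes for the upkeep and transcription of mitochondrial DNA, 1 passed, lower, and the median was −0.83. It was PolG1, the catalytic subunit of the mitochondrial DNA polymerase, with 4.95 and 5.76 with UPD and 7.92 and 7.20 with Mock, and it fell by 2.20 ± 0.38 (limma adjusted p = 0.0498). The highest of that list was mtTFB2, a mitochondrial transcription factor (0.50).

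Both calls lie at the threshold. With 1 array left out at a time, ValRS-m passed limma's test in 1 of 12 fits (without Mock 10 h replicate 2), with adjusted p from 0.0393 to 0.129 over the 12. In the same fits PolG1 passed in 2 (those leaving out replicate 2 of UPD or of Mock at 10 h), with adjusted p from 0.0424 to 0.128. Of 9 other settings, 6 kept each call, and it was lost with one common median, with the 10 h arrays alone and with the replicate number as a block.

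In UPD-treated cells, 10 h against 2 h, 1 translation helper, 3 synthetases and 4 genes of DNA upkeep and transcription were lower, beside 9.46% of all probe sets called, and none was higher. Of the 9384 probe sets above the median level, the same test called 1554 lower and 15 higher. The helper was bsf, a messenger-binding protein (fell by 1.19, limma adjusted p = 0.0482). The synthetases were ValRS-m (fell by 2.15, limma adjusted p = 0.0159), AspRS-m (fell by 1.67) and MetRS-m (fell by 1.45). The DNA genes were PolG1 (fell by 1.98), PolrMT, the mitochondrial RNA polymerase (fell by 1.51), Lon, a protease of the matrix (fell by 1.57), and mtDNA-helicase, the helicase of mitochondrial DNA replication (fell by 1.33). The list medians were −0.42, −0.84 and −1.33, beside −0.80 for bright probe sets and 0.02 for the ribosomal protein genes. When single arrays were left out, these 8 calls passed in 2 to 8 of 12 fits, with adjusted p from 0.0117 to 0.238, and each passed without either Mock array of 10 h. With quantile normalization or the compared arrays alone none of the 8 passed, and with the replicate number as a block ValRS-m alone did. The 8 genes are 2192 to 10949 bp long, longer than the median ribosomal protein gene. With a trend in gene length removed, the list medians for 10 h minus 2 h in UPD-treated cells were −0.045, −0.12 and −0.47. Those between media at 10 h were −0.043, −0.22 and −0.24, with ValRS-m and PolG1 still called in both comparisons. The ribosomal protein genes then had medians of −0.019 and −0.069. Between media, the translation factors and helpers thus lay above the ribosomal protein genes in that setting. The 41 measured cytosolic ribosomal protein genes, for comparison, had a median of 0.02 between media at 10 h and 0.01 between 10 and 2 h in UPD-treated cells, with 0 called in both.

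**Figure D5:**
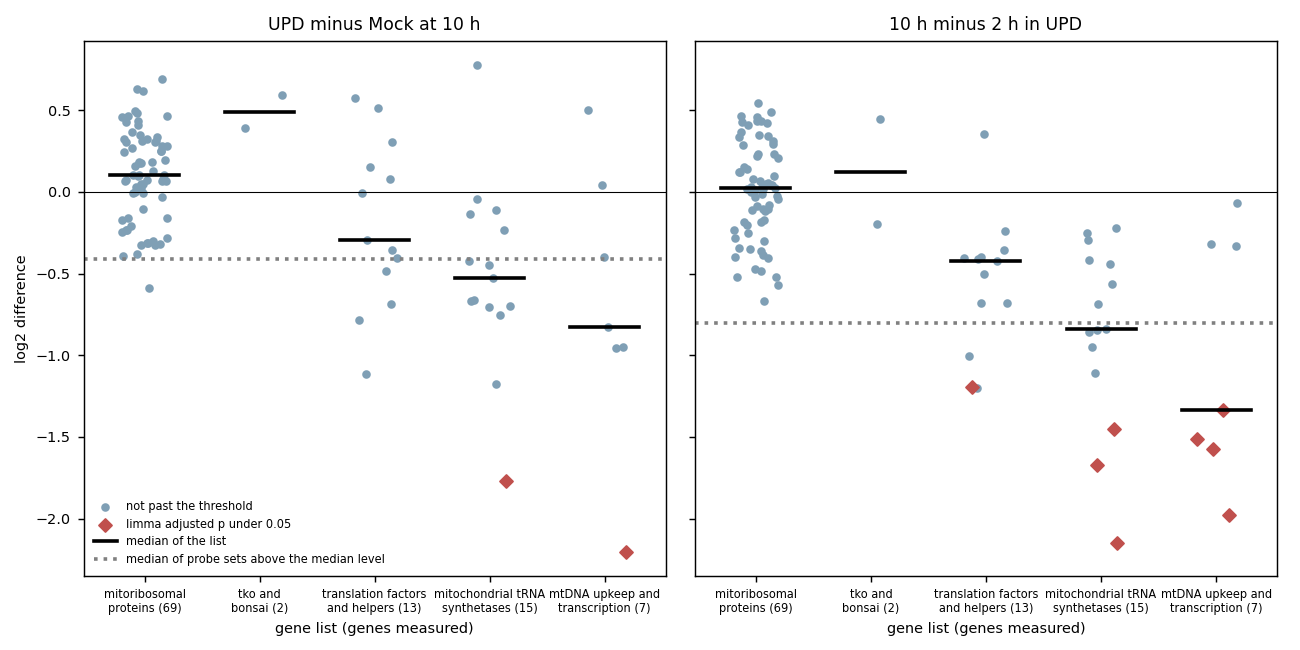
Log2 difference (vertical axis) of each gene of 5 lists (horizontal axis), UPD minus Mock at 10 h (left) and 10 h minus 2 h in UPD-treated cells (right), with bars at list medians, red diamonds for genes past limma's threshold and a dotted line at the median of probe sets above the median level. On the left the ribosomal proteins lie between −0.59 and 0.69, while the last 3 lists reach down to −1.12, −1.77 and −2.20.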

How the data were processed

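Transcripts were measured on 12 Affymetrix arrays, with biotinylated cRNA made from 1 µg of total RNA, per the labels' protocols. The authors deposited 1 log2 value per probe set and array. Its base is inferred from the values. The tool that summarised probes and any normalization are not stated by any source used here. Medians over the tested probe sets were 2.332 to 2.348 on the UPD arrays and 2.381 to 2.395 on the Mock arrays. Groups and replicate numbers came from the sample titles. The number of arrays limits the precision. Each p-value sets a difference against a spread between duplicates that is pooled over all 6 groups and moderated over probe sets.

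The 183 control probe sets were left out and 18769 were tested. A linear model of 6 group means was fitted to the 12 arrays in limma 3.58.1 (R 4.3.3), with 6 residual degrees of freedom and empirical Bayes moderation (prior degrees of freedom 1.54, prior SD 0.57). The 6 contrasts were two-sided, adjusted by Benjamini-Hochberg over all probe sets, with a threshold of 0.05. SE is limma's. The script was tested on simulated data. No p-value is given for the family as a whole.

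Genes were named by a rule: in each contrast the 3 highest, the 3 lowest and the smallest p, the 3 highest and 3 lowest mean levels, and the highest and lowest of each list at 10 h. Names came from the platform annotation, updated through the RefSeq table, which gave no coordinates here. mRpL36, mRpL38, mRpL40, mRpL43, mRpL23 and mRpS33, and the values of list genes beyond the rule, were chosen after their values were seen. The genes and lists were chosen with earlier results of these data known. The list symbols mEFG2, mtTFB1, Eral1, SLIRP1, AlaRS-m, PolG2, Mtf and the marker Atilla were not measured by a single-gene probe set.

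Alternatives were quantile normalization, one common median, fitting the brighter 9384 probe sets alone (those above the median mean level), robust moderation with a variance trend, a fit to the arrays compared and no others, a replicate block, the mean over a gene's probe sets, removal of a trend in gene length, and leaving out each array. Centring on the family median and the fits on 8 arrays were added after seeing the data.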

Additional observations from a re-analysis of the deposited data

Results flagged for a closer look

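In mRpS9 and mRpS30 the UPD arrays lay on opposite sides of the Mock arrays at 2 and at 4 h. For mRpS9 both UPD arrays were lower at 2 h (10.26 and 10.19 against 10.37 and 10.28) and higher at 4 h (10.16 and 10.12 against 9.85 and 9.95), a difference between the responses of 0.34. For mRpS30 both were lower at 2 h (10.14 and 10.19 against 10.34 and 10.23). At 4 h both were higher (10.03 and 9.862 against 9.855 and 9.81), but by 1 pair of nearly equal arrays, and the difference between the responses was 0.23. Among probe sets above the median level, both UPD arrays were lower in 44.3% at 2 h and higher in 17.9% at 4 h. The share that did both was not counted. In both genes the UPD arrays changed less between 2 and 4 h than the Mock arrays. The difference between the times was not tested.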

How the results depend on the processing

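Named genes had 36 differences, with 780 values over 23 alternatives, of which 761 kept direction and side of the threshold, 17 reversed and 2 came to pass the threshold. In many of these values the direction could not change, so the 761 do not measure how stable the differences are. Leaving out an array outside the comparison gives the same difference. So do the filter on low values, the variance trend, the fit to the compared arrays and the replicate block. No gene of the family passed in any comparison when single arrays were left out, with the replicate block, or with the filter on low values. Quantile normalization gave 1 called gene in each of UPD minus Mock at 10 h and 10 h minus 2 h in UPD, where the family median was 0.58. In these comparisons 30 and 49 of the 69 genes then had an unadjusted p under 0.05 in limma's test. It turned mRpS29 at 10 h to 0.0172 and mRpL22 in 10 h minus 2 h in UPD to 0.0533. Centring on the family median gave 1 called gene in 10 h minus 2 h in UPD. Removal of the gene length trend moved the family median at 4 h to 0.12. It turned mRpS5 and mRpS9 at 2 h to 0.0187 and 0.0489, mRpL42 and mRpS6 at 4 h to 0.0489 and 0.0256, mRpS5 in 10 h minus 2 h in Mock to 0.0078 and mRpS9 in 10 h minus 2 h in UPD to 0.55. With single arrays left out, the family median ranged from −0.07 to 0.10 at 2 h, −0.01 to 0.06 at 4 h, −0.30 to 0.53 at 10 h, −0.49 to 0.40 in 10 h minus 2 h in Mock, −0.33 to 0.35 in 10 h minus 2 h in UPD, and −0.30 to 0.52 for the response at 10 h minus that at 2 h. Ranges crossed 0 for mRpS24 at 2 h (−0.0205 to 0.31), mRpS22 and mRpS29 at 10 h (−0.93 to 0.18 and −0.85 to 0.0629) and in the response at 10 h minus that at 2 h (−0.96 to 0.15 and −0.89 to 0.0287). They also did for mRpL2, mRpL47 and mRpS14 in 10 h minus 2 h in Mock (−0.25 to 0.74, −0.16 to 0.59 and −0.16 to 0.62). The cause was not tested. Probe set calls at 10 h, UPD minus Mock, were 199 in the 12-array test, 111 with one common median, 1899 with a variance trend, 715 without the length trend, 1569 after centring, 0 with the 10 h arrays alone and 1 with the replicate block. For 10 h minus 2 h in UPD they were 1776, 4020 with a variance trend, 503 without the length trend, 0 with the compared arrays alone and 723 with the replicate block. The labels do not say that replicate numbers pair samples. Deviations of same-numbered arrays correlated at −0.037, −0.033 and −0.048 between media at 2, 4 and 10 h. These correlations over probe sets leave out a shift of a whole array, so they do not settle whether the numbers pair samples. With the replicate block the family medians stayed at 0.02, 0.02 and 0.10. They could not change, because each group holds both replicate numbers. Signal over background does not limit these genes, which lay above the array median on 12 arrays, but the spread between the 10 h replicates does.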

Other observations

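The genes mRpL47 and mRpS11 each have a second single-gene probe set. For mRpL47 the probe sets gave 0.25 and 0.41 for UPD minus Mock at 10 h and 0.30 and 0.50 for 10 h minus 2 h in UPD-treated cells. For mRpS11, a counterpart of a bacterial platform protein, the brighter probe set gave −0.04 at 4 h and 0.08 at 10 h between media, and the dimmer one −0.26 and 0.38.

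The sign of the difference between media was the same at 2, 4 and 10 h in 17 of the 69 genes, positive in 16 and negative in 1. At 4 h the 41 cytosolic ribosomal protein genes had a median difference of 0.45 (−0.77 to 1.51) with 36 positive and 0 called by limma, beside 0.02 for the mitochondrial ones. At 2 h their median was −0.08, with 7 positive and 34 negative. The 4 h value includes Mock 4 h replicate 2, whose spikes were low, and is not given without it.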
